A study of Rattus norvegicus with 20 samples.

Results

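The 10 genes described here encode parts of the adherens junction and the desmosome, the adhesive contacts of epithelial cells, and were measured as RNA in the fat layer of rat milk: Cdh1, Ctnnb1, Ctnna1, Ctnnd1 and Epcam, and Dsc2, Dsg2, Jup, Dsp and Pkp3. They were found by their gene symbol in the deposited table of 16748 genes. There were 8 of the 10 to analyse, and each was above the lowest value of the table in every library. Dsg2 and Dsp were not analysed here. The deposited gene IDs are 83502 for Cdh1, 84353 for Ctnnb1, 307505 for Ctnna1, 311163 for Ctnnd1, 171577 for Epcam, 291760 for Dsc2, 81679 for Jup and 293619 for Pkp3.

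Epithelial cells are held together by cadherins, membrane proteins whose outer parts bind those of the neighbouring cell. In the adherens junction the cadherin binds beta- and p120-catenin, and alpha-catenin links that complex to actin. In the desmosome the desmogleins and desmocollins bind plakoglobin and plakophilins, which are tied to keratin filaments through desmoplakin. In the lactating mammary gland these contacts hold together the luminal cells that line each alveolus, and milk fat globules leave through the apical membrane of the same cells with remnants of their cytoplasm.

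Lactating wild type Sprague-Dawley rats received lipopolysaccharide (LPS), a bacterial cell wall component that activates innate immunity, or saline on postnatal day 10. Milk was drawn 2 h later (P10) or 24 h later (P11), in every group after oxytocin and under isoflurane, and there were 5 libraries in each of the 4 groups. The libraries came from 14 dams, 7 per treatment, and 3 of each treatment had a library at both times. The columns of the table name no dam, so p-values across days treat libraries as independent that in part share a dam. The LPS dose and the age of the dams are not given in the labels. In milk, less RNA per cell and fewer cells of a type cannot be told apart, and reads per library are unknown, so precision is given as the spread between libraries.

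The libraries carried the transcripts of milk-producing epithelium. Casein genes held 47.8% to 67.6% of all normalised counts at P10. At P11 they held 18.4% to 31.5% in 9 libraries and 54.1% in saline library 2. That library stood apart from its group: the normalised counts of the 8 genes summed to 51135 there, against 135955 to 158876 in the other P11 saline libraries and 46965 to 58371 in the P10 saline libraries. Results for saline dams at P11 are therefore given with and without it.

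The day of milking went with most of the differences. P11 differs from P10 in lactation day and in hours since injection, and dams with libraries on both days had been milked before. These cannot be told apart here. At P11, 6 of the 8 genes were higher than at P10 in saline dams, and the same 6 in LPS dams: Cdh1, Ctnnb1, Ctnna1, Epcam, Dsc2 and Jup. Of all 14022 genes tested, 25.6% were called higher at P11 in saline dams and 30.9% in LPS dams, at an adjusted p under 0.05, and 21.2% and 22% were called lower. With all libraries, Ctnnd1 and Pkp3 were not called in either. Without P11 saline library 2, 7 of the 8 were called higher in saline dams, Ctnnd1 being the added gene, beside 31.9% of all genes. The median log2 difference of the 8 genes was 0.88 in saline dams and 1.11 in LPS dams, beside 0.05 and 0.10 over all genes tested. Both comparisons came from 1 fit over the 4 groups, with 1 estimate of spread.

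**Figure D1:**
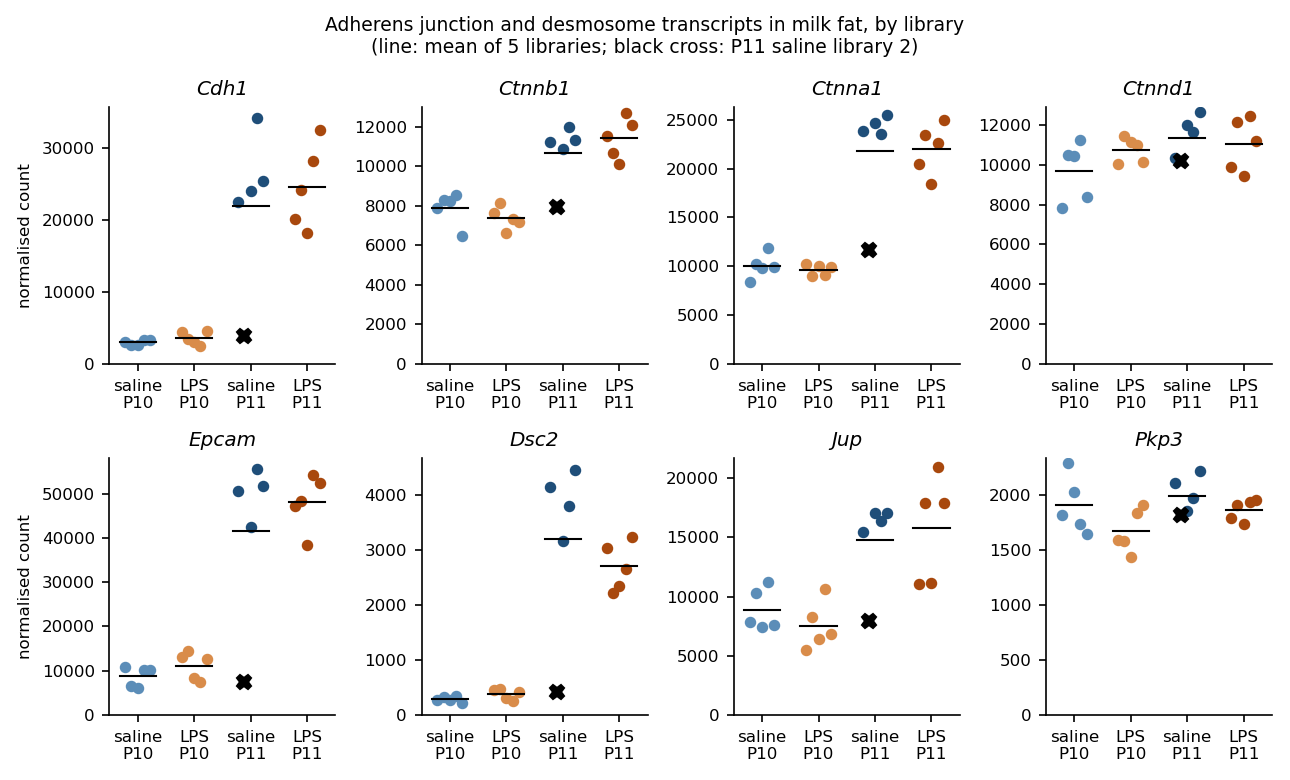
Normalised count (vertical axis, from 0) of 8 junction genes in each library, by group; points are libraries, lines are means of 5, and the black cross is P11 saline library 2. Cdh1, Epcam and Dsc2 stand far above P10 in 9 of the 10 P11 libraries, while Ctnnd1 and Pkp3 overlap between the days.

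Cdh1 encodes E-cadherin, the classical cadherin of epithelial adherens junctions. At P10 its normalised counts were 3067, 2664, 2684, 3261 and 3368 in saline libraries 1 to 5 and 4417, 3506, 3041, 2488 and 4588 in LPS libraries 1 to 5. At P11 they were 22501, 3863, 23942, 34043 and 25368 in saline libraries 1 to 5 and 20073, 24113, 18201, 28097 and 32482 in LPS libraries 1 to 5. All P11 libraries except saline library 2 lay far above every P10 library, and that library lay just above the saline P10 range and inside the LPS P10 range. In saline dams the mean went from 3009 ± 324 to 21943 ± 11061 normalised counts (SD, n = 5 and 5), a 7.29-fold difference with a log2 difference of 2.54 ± 0.39 (SE; adjusted p = 1.27e-04). Without P11 library 2 the mean was 26464 ± 5187 (SD, n = 4) and the log2 difference was 3.09 ± 0.18. In LPS dams Cdh1 went from 3608 ± 895 to 24593 ± 5832 (SD, n = 5 and 5), which is 6.82-fold, with a log2 difference of 2.74 ± 0.39 (adjusted p = 2.67e-05).

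The catenins that bind the tail of E-cadherin differed among themselves. Ctnna1, alpha-catenin, joins the complex to actin. Normalised counts of Ctnna1 at P10 were 8362, 10264, 9833, 11889 and 9952 in saline libraries 1 to 5 and 10203, 8993, 10025, 9085 and 9978 in LPS libraries 1 to 5. At P11 the counts were 23832, 11632, 24686, 23490 and 25446 in saline libraries 1 to 5 and 20417, 23422, 18432, 22647 and 24977 in LPS libraries 1 to 5. In LPS dams the days did not overlap; in saline dams they overlapped through P11 library 2 alone, which lay inside the P10 range. The log2 difference was 1.06 ± 0.17 in saline dams (SE; adjusted p = 1.60e-04; 1.28 without library 2) and 1.17 ± 0.17 in LPS dams (adjusted p = 3.16e-05), a 2.17-fold and a 2.28-fold difference of the means.

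Ctnnb1, beta-catenin, binds the cadherin tail and, when freed and stabilised, acts in Wnt signalling. It had P10 normalised counts of 7883, 8304, 8229, 8519 and 6451 in saline libraries 1 to 5 and 7610, 8144, 6623, 7319 and 7170 in LPS libraries 1 to 5. Its P11 counts were 11234, 7923, 10858, 11982 and 11326 in saline libraries 1 to 5 and 11539, 10676, 10098, 12676 and 12069 in LPS libraries 1 to 5. The LPS libraries of P11 all lay above those of P10, and in saline dams all P11 libraries but library 2 did. Ctnnb1 was 1.35-fold higher in saline dams (log2 difference 0.43 ± 0.11, SE; adjusted p = 0.00524) and 1.55-fold higher in LPS dams (0.62 ± 0.11; adjusted p = 2.05e-04). When every library was shifted to the same median value, the saline difference was 0.21 and was no longer called (adjusted p = 0.138).

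Ctnnd1 encodes p120-catenin, which binds the cadherin next to the membrane and slows its removal from the surface. The P10 normalised counts were 7805, 10494, 10427, 11225 and 8396 in saline libraries 1 to 5 and 10030, 11438, 11134, 10993 and 10112 in LPS libraries 1 to 5. Those of P11 were 10341, 10159, 11991, 11639 and 12650 in saline libraries 1 to 5 and 9884, 12151, 9435, 12453 and 11190 in LPS libraries 1 to 5. The days overlapped in both arms. The log2 difference was 0.24 ± 0.12 in saline dams (SE; 95% interval -0.0018 to 0.48; adjusted p = 0.0963) and 0.03 ± 0.12 in LPS dams (-0.21 to 0.27; adjusted p = 0.849), and the latter turned to -0.24 when libraries were shifted to the same median. Without P11 library 2 the saline difference was 0.28 and passed (adjusted p = 0.0465), though it did not pass in a fit of those 2 groups alone.

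Epcam encodes the epithelial cell adhesion molecule, a membrane protein of epithelia that associates with claudin-7 and is cut by proteases. In the P10 libraries its normalised counts were 10936, 6538, 6049, 10155 and 10115 in saline libraries 1 to 5 and 13120, 14350, 8393, 7463 and 12586 in LPS libraries 1 to 5. In the P11 libraries they were 50509, 7407, 42447, 55582 and 51771 in saline libraries 1 to 5 and 47137, 48351, 38350, 54171 and 52327 in LPS libraries 1 to 5. The P11 libraries other than saline library 2 were all above every P10 library of either arm. Epcam rose 4.74-fold in saline dams, from 8758 ± 2280 to 41543 ± 19674 normalised counts (SD, n = 5 and 5), with a log2 difference of 1.99 ± 0.40 (SE; adjusted p = 6.92e-04) and of 2.54 ± 0.20 without library 2. It rose 4.30-fold in LPS dams, from 11183 ± 3057 to 48067 ± 6140 (SD, n = 5 and 5; log2 difference 2.13 ± 0.40, adjusted p = 2.53e-04).

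Dsc2 encodes desmocollin 2, a desmosomal cadherin that simple epithelia make. Dsc2 had P10 normalised counts of 277, 334, 278, 340 and 218 in saline libraries 1 to 5 and 455, 476, 302, 263 and 418 in LPS libraries 1 to 5. It had P11 counts of 4150, 422, 3158, 3804 and 4462 in saline libraries 1 to 5 and 3043, 2221, 2350, 2664 and 3231 in LPS libraries 1 to 5. The days did not overlap in either arm, although saline library 2 of P11 came close to the saline P10 libraries and lay within the LPS P10 range. Dsc2 had the largest fold of mean counts of the 8 genes in each arm, 11.04 in saline dams and 7.06 in LPS dams. The log2 differences were 2.82 ± 0.41 (SE; adjusted p = 8.84e-05) and 2.59 ± 0.41 (adjusted p = 5.81e-05). Without library 2 the saline fold was 13.4 and the log2 difference 3.42 ± 0.16.

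Jup encodes plakoglobin, a relative of beta-catenin found in both kinds of junction. For Jup the normalised counts at P10 were 7830, 10335, 7434, 11245 and 7616 in saline libraries 1 to 5 and 5497, 8266, 6456, 10618 and 6799 in LPS libraries 1 to 5. For P11 they were 15480, 7917, 17021, 16361 and 17019 in saline libraries 1 to 5 and 11042, 17900, 11146, 20919 and 17885 in LPS libraries 1 to 5. The days did not overlap in LPS dams, and in saline dams they overlapped through library 2 of P11 alone. Jup was 1.66-fold higher in saline dams (log2 difference 0.69 ± 0.23, SE; adjusted p = 0.0204) and 2.10-fold higher in LPS dams (1.05 ± 0.23; adjusted p = 0.00106). In saline dams the call was lost when P10 library 3 or P11 library 3, 4 or 5 was left out (adjusted p = 0.0514 to 0.0555), and when libraries were shifted to the same median (0.0815); without library 2 of P11 the log2 difference was 0.90.

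Pkp3 encodes plakophilin 3, a desmosomal plaque protein that binds the desmosomal cadherins, plakoglobin and desmoplakin. Pkp3 normalised counts at P10 were 1816, 2293, 2030, 1738 and 1645 in saline libraries 1 to 5 and 1595, 1581, 1440, 1837 and 1911 in LPS libraries 1 to 5. By comparison, those at P11 were 2106, 1814, 1852, 1975 and 2221 in saline libraries 1 to 5 and 1786, 1907, 1740, 1932 and 1950 in LPS libraries 1 to 5. All 4 groups overlapped, and library 2 of P11 was not apart from its group here. The log2 difference was 0.07 ± 0.10 in saline dams (SE; 95% interval -0.14 to 0.28; adjusted p = 0.602) and 0.15 ± 0.10 in LPS dams (-0.06 to 0.36; adjusted p = 0.208), and both turned negative when libraries were shifted to the same median.

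**Figure D2:**
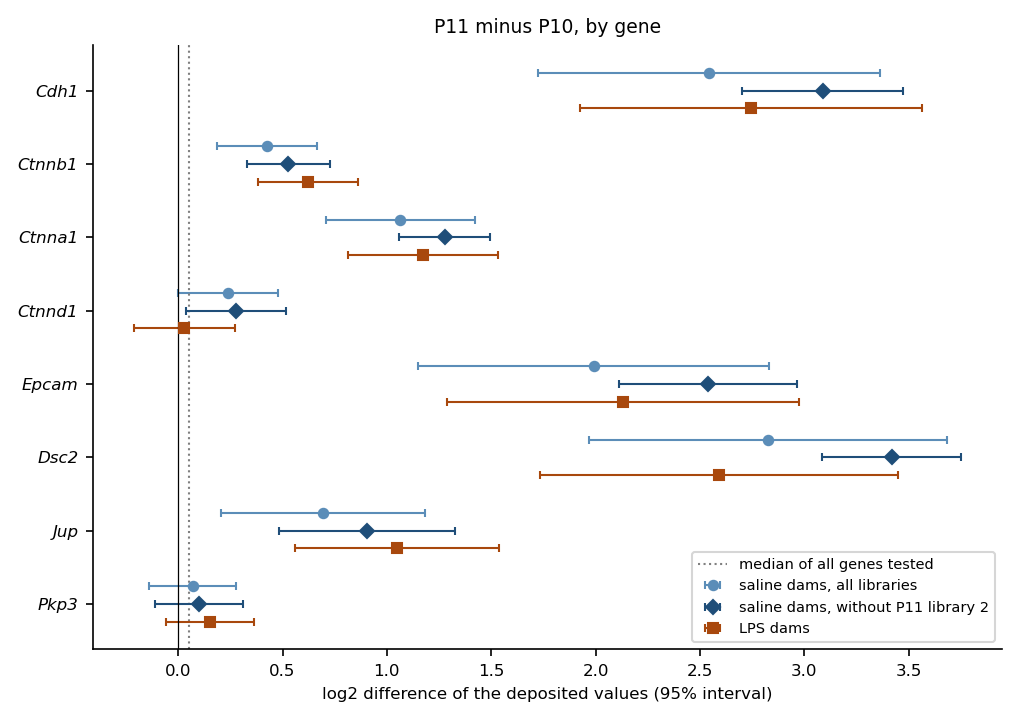
Log2 difference between P11 and P10 (horizontal axis) of each gene with its 95% interval, in saline dams with all libraries, in saline dams without P11 library 2, and in LPS dams; the dotted line is the median of all genes tested in saline dams, 0.05. Dsc2, Cdh1 and Epcam lie highest in every series of points and Pkp3 and Ctnnd1 lie next to the dotted line.

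How the libraries were scaled set the size of these differences. The summed normalised counts were 51511650 to 99294934 per library at P10 and 23246758 to 29065868 in the P11 libraries other than saline library 2. Divided by that total, the median gene was higher at P11 by 0.69 on the log2 scale in saline dams and by 1.07 in LPS dams, and all 8 junction genes were called higher in both arms, as were 57.3% and 70% of all genes. On that scale Pkp3 differed by 1.17 and 1.77, and Ctnnd1 by 1.36 and 1.68, in saline and LPS dams. The order from Dsc2 or Cdh1 at the top to Ctnnd1 and Pkp3 at the bottom was the same on both scales. That order could hardly change, since dividing by the total shifts all genes of a library by about the same amount. 

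Markers of other cells also differed between the days. The counts of genes called stand beside 25.6% of all genes called higher and 21.2% lower in saline dams. In LPS dams these shares were 30.9% and 22%. Of 10 neutrophil genes, 8 were called higher at P11 in saline dams and 9 in LPS dams, and none lower. Their summed normalised counts were 66.5 to 233 in saline and 81.3 to 802 in LPS dams at P10, and at P11 180 in saline library 2, 10190 to 33402 in the other saline libraries and 5938 to 20090 in LPS dams. Of 12 macrophage and monocyte genes, 4 and 5 were called higher, with sums of 2289 to 3058 and 2239 to 4437 at P10 and of 3330 to 45781 and 7754 to 15526 at P11. Of 10 myoepithelial genes, 5 and 6 were called higher and 1 lower, with sums of 1657 to 2180 and 1380 to 2543 at P10 and of 3107 to 23099 and 12551 to 20271 at P11. Acta2, smooth muscle actin, and Krt17 were the leading ones, with log2 differences of 2.63 and 5.21 in saline dams. They also held most of the P11 sums, which averaged 16043 in saline and 16443 in LPS dams. Acta2 averaged 9625 and 9509 there, and Krt17 5774 and 6128. Each other gene of this list averaged at most 328 at P11. Cnn1 averaged at most 22.9, Krt5 at most 15.9 and Myh11 at most 64.2 in any group. Myoepithelial cells also make cadherins and catenins, and the part of these cells, of neutrophils and of macrophages in the junction gene results was not tested.

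Markers of skin, endothelium and fibroblasts were counted in the same way, beside the same shares of all genes. The skin keratinocyte markers Krt1 and Ivl were listed at 0 in every library, but of the 3 detected genes of that list Sbsn was called higher, by 3.38 in saline and 4.44 in LPS dams on the log2 scale, with sums for the list of 93.2 to 145 and 84.1 to 151 at P10 and of 138 to 2429 and 1239 to 2474 at P11. The endothelial markers Emcn and Cdh5 were at 0 in all P11 libraries. Sums for the 7 detected genes were 42.5 to 155 and 55.6 to 140 at P10 and 75.1 to 175 and 118 to 195 at P11. Of the 7, 2 were called higher in each arm, which is near the share of all genes. The fibroblast markers Dcn, Lum and Pdgfrb were at 0 in every library, and 1 and 2 of the 3 detected genes were called higher, with sums of 0 to 6.74 and 0 to 5.79 at P10 and of 2.26 to 103 and 26.7 to 60.5 at P11. Luminal markers were divided: of 11, 5 were called higher and 4 lower in each arm. Krt19, a keratin of simple epithelium, was higher by 3.73 on the log2 scale in saline dams, whereas the prolactin receptor Prlr fell by 2.45 and the transcription factor Elf5 fell by 2.19.

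Promoter windows are shown for 3 genes that rose (Epcam, Dsc2 and Jup) and for Ctnnd1, which was not called with all libraries. Ctnnb1, which also rose, had a window that is not shown. Each window holds the 250 bases before the annotated start, read 5′ to 3′ on the gene's strand from RefSeq (build GRCr8), a different build from the one the submitters name. Capitals mark matches to the E-box CAGGTG, which Snail and ZEB repressors of Cdh1 can bind, or to the GC box GGGGCGGGG of Sp and KLF factors, on either strand. The table held a window for 7 of the 10 members, with none for Cdh1, Ctnna1 or Pkp3.
Epcam: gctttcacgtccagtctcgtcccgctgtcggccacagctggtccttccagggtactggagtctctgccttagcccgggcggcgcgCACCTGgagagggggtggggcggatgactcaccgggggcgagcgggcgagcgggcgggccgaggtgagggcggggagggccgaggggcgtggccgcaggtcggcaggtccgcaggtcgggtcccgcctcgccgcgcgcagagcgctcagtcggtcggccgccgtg
Dsc2: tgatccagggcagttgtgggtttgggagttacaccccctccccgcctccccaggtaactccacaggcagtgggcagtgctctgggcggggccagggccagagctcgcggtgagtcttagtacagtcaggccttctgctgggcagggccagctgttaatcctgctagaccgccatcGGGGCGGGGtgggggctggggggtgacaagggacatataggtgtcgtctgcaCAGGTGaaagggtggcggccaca
Jup: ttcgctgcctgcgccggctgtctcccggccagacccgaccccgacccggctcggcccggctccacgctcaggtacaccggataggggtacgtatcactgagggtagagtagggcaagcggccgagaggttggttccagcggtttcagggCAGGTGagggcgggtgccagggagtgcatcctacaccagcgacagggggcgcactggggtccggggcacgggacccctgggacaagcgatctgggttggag
Ctnnd1: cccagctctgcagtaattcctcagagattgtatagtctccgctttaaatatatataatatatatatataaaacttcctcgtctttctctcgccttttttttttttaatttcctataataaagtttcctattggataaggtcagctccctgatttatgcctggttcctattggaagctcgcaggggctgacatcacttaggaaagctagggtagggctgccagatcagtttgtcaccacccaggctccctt
The windows lie at chr6:12649679-12649928, minus strand for Epcam, chr18:11757467-11757716, minus strand for Dsc2, chr10:85827430-85827679, minus strand for Jup and chr3:90141190-90141439, minus strand for Ctnnd1.

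The E-box stood 165 bases before the start in Epcam, 101 in Jup and 23 in Dsc2, and Dsc2 had a GC box 75 bases before the start; no matches overlapped. The E-box was present in 5 of the 7 windows (Epcam, Dsc2, Jup, Dsp and Dsg2, but not Ctnnb1 or Ctnnd1) and in 15.9% of all 33469 windows. The GC box was in 3 of the 7 (Dsc2, Dsp and Dsg2) and in 9.0% of all windows. Neither the STAT motif TTCNNNGAA, present in 7.67% of all windows, nor the Grainyhead-like motif AACCGGTT, present in 0.15%, was found in the 7. GC content was 75.6% in Epcam, 68.8% in Jup, 64.4% in Dsc2, 49.2% in Ctnnb1 and 40.8% in Ctnnd1, beside a median of 51.2% over all windows. A match says only that these letters occur.

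Within each library the partners of a junction were also set against each other, which removes the scaling. Cdh1 changed against its partner Ctnnb1. This pair was chosen after seeing the data, so its p-values only describe a difference already seen. At P10 the log2 value of Cdh1 minus that of Ctnnb1 ran from -1.61 to -0.92 in saline and from -1.52 to -0.63 in LPS libraries, and at P11 from 0.79 to 1.42 in LPS libraries. In saline libraries at P11 it ran from 0.9965 to 1.4997 apart from library 2, at -1.02. The mean difference rose by 2.12 in LPS dams (2-sided exact permutation test over libraries, p = 0.0079, adjusted p = 0.0476 over 24 tests, n = 5 and 5). In saline dams it differed by 2.12 with all libraries (exact p = 0.0159, adjusted 0.0544) and rose by 2.56 without library 2 (exact p = 0.0079, adjusted 0.0317).

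Ctnnd1 and Ctnna1, which join the complex at different places, moved apart. Ctnnd1 minus Ctnna1 was -0.24 to 0.08 in saline and -0.02 to 0.34 in LPS libraries at P10, and -1.15 to -0.86 in LPS libraries at P11. In LPS dams the mean fell by 1.14 (exact p = 0.0079, adjusted 0.0476). In saline dams it differed by -0.83 with all libraries (exact p = 0.0159, adjusted 0.0544) and fell by 0.9996 without library 2 (exact p = 0.0079, adjusted 0.0317), which at -0.19 lay inside the P10 range.

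Epcam minus Cdh1 differed by -0.61 in LPS dams (exact p = 0.0079, adjusted 0.0476) and by -0.55 in saline dams (exact p = 0.0159, adjusted 0.0544; -0.55 and 0.0635 without library 2). Library 2 of P11, at the P10 level for both genes, lay in the P11 range for this difference. The plaque proteins also parted: Pkp3 minus Jup differed by -0.89 in LPS dams (exact p = 0.0079, adjusted 0.0476) and by -0.62 in saline dams (exact p = 0.0317, adjusted 0.0952; -0.80 and 0.0476 without library 2). Jup minus Ctnnb1 differed by 0.42 in LPS dams (exact p = 0.0714, adjusted 0.171) and by 0.27 in saline dams (exact p = 0.111, adjusted 0.242; 0.38 and 0.0476 without library 2). The cadherins of both junctions, Dsc2 minus Cdh1, differed by -0.15 in LPS dams (exact p = 0.365, adjusted 0.584) and by 0.28 in saline dams (exact p = 0.183, adjusted 0.313), with overlapping groups. Pkp3 minus Jup and Dsc2 minus Cdh1 were, like Cdh1 minus Ctnnb1, chosen after seeing the data, so their p-values are a description. The 4 pair calls in LPS dams were each lost when P10 LPS library 1, 2, 3 or 5 was left out. They were also lost without P11 LPS library 2, 4 or 5 (exact test, adjusted p = 0.0544). Fewer libraries allow fewer splits, and each of these differences kept its sign whichever LPS library was left out.

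**Figure D3:**
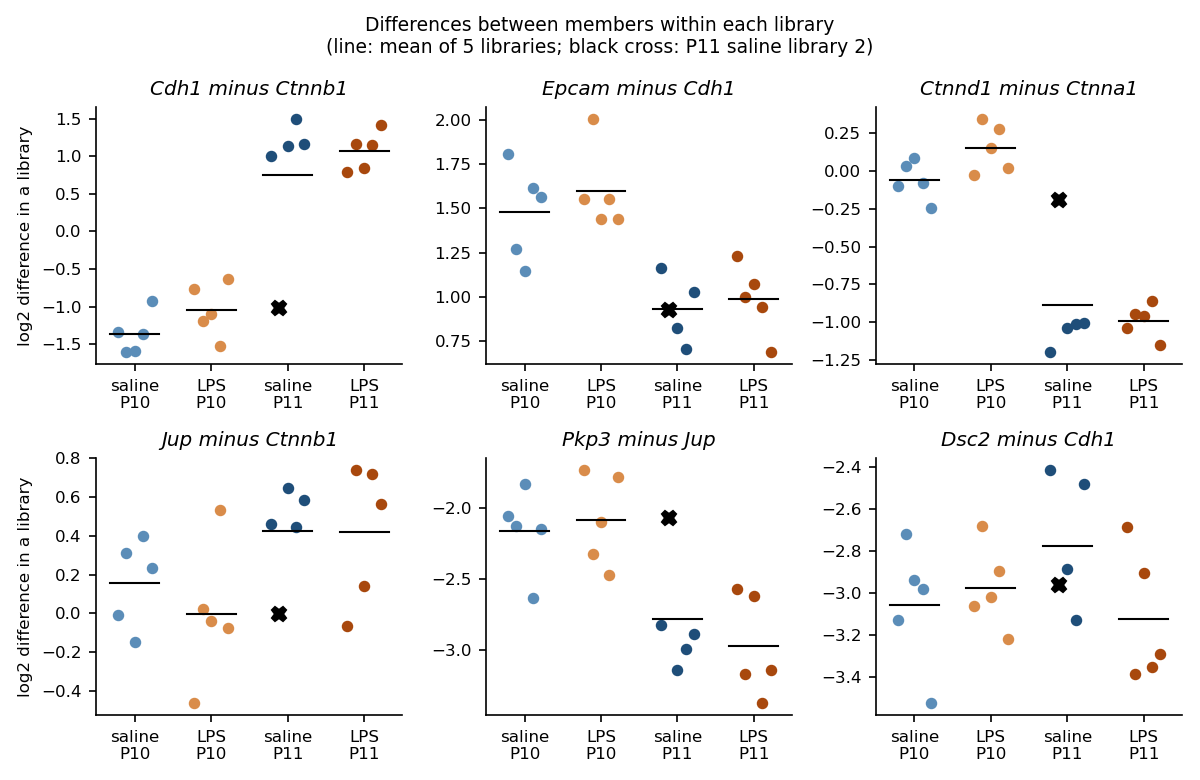
Log2 value of one gene minus that of another within each library (vertical axis), by group; points are libraries, lines are means of 5, and the black cross is P11 saline library 2. Cdh1 minus Ctnnb1 runs from -1.61 to -0.63 at P10 and from 0.79 to 1.4997 at P11 apart from library 2, at -1.02.

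Set against the luminal keratins Krt8 and Krt18, whose filaments fill the secretory cell, the 8 genes fell on both sides. In LPS dams, relative to the mean log2 value of these keratins, Cdh1 differed by 1.04 and Dsc2 by 0.89, while Ctnnb1 differed by -1.08, Ctnna1 by -0.53, Ctnnd1 by -1.67 and Pkp3 by -1.55 (exact p = 0.0079 each, adjusted 0.0363 over 32 tests, n = 5 and 5). Epcam (0.43, adjusted 0.143) and Jup (-0.66, adjusted 0.0635) did not pass. Each of these 6 calls was lost when any 1 of the 5 P11 LPS libraries was left out, and that for Cdh1 also without P10 LPS library 4 (exact test, adjusted p = 0.0508 to 0.0564). Fewer libraries allow fewer splits, which raises the smallest possible p. Leaving out 1 LPS library at a time gave 0.90 to 1.17 for Cdh1, 0.77 to 0.99 for Dsc2 and -1.14 to -1.02 for Ctnnb1. It gave -0.62 to -0.43 for Ctnna1, -1.75 to -1.57 for Ctnnd1 and -1.631 to -1.505 for Pkp3. In saline dams only Dsc2 passed with all libraries (1.49, exact p = 0.0079, adjusted 0.0363), and not when any 1 of the 5 P10 saline libraries was left out (adjusted p = 0.0635 to 0.0693); without library 2, Cdh1 (1.44), Dsc2 (1.77), Ctnnb1 (-1.12), Ctnnd1 (-1.37), Pkp3 (-1.55) and Jup (-0.75) passed. The sign for Cdh1, Epcam and Dsc2 depended on the reference: against Krt19 alone they differed by -1.18, -1.73 and -0.90 in saline dams and by -2.29, -2.90 and -2.44 in LPS dams (exact test, adjusted p = 0.0149 each).

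LPS was compared with saline on each day, the question the study was designed for. No member passed on either day (limma, adjusted p under 0.05), and none had an unadjusted p under 0.05 with all libraries. Over all genes tested, 0% were called at P10, where 622 had an unadjusted p under 0.05, and 0.0856% at P11, where 1004 did. Without P11 saline library 2 it was 0.0642% at P11. For the difference between the LPS effects of the days, 0.0357% were called, and 0.0285% without that library, with none of the 8 genes among them. The authors' own DESeq2 results called more genes at P10 than the limma fit. They hold 48 genes at P10 and 19 at P11 with an adjusted p under 0.05, none of them a member. In the limma fit the log2 differences at P10 ran from -0.25 for Jup (95% interval -0.74 to 0.24) to 0.34 for Epcam (-0.50 to 1.19), with Cdh1 at 0.23 (-0.59 to 1.05). At P11 they ran from -0.09 for Pkp3 (-0.30 to 0.12) to 0.48 for Epcam (-0.36 to 1.33), with Cdh1 at 0.43 (-0.39 to 1.25). The spread was estimated over all 4 groups, so P11 saline library 2 also widened the P10 intervals. Without that library the P10 differences were unchanged and their intervals were narrower. These were -0.65 to 0.14 for Jup, -0.06 to 0.75 for Epcam and -0.14 to 0.59 for Cdh1. Dsc2, at 0.31 at P10, had an interval of -0.55 to 1.17 with that library and of -0.0018 to 0.62 without it. Each P10 interval of the 8 genes still held 0.

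Library 2 of the P11 saline group set the sign of the LPS difference for Cdh1, Ctnna1, Jup, Epcam and Dsc2 at P11. Without it, 7 of the 8 differences were negative, and Dsc2 stood out with a value of -0.52 ± 0.16 (SE; 95% interval -0.85 to -0.19; unadjusted p = 0.00408, adjusted p = 0.263), beside 0.08 ± 0.41 with all libraries. The Dsc2 counts given above ran from 3158 to 4462 in those 4 saline libraries and from 2221 to 3231 in the 5 LPS libraries, so that 1 saline library lay within the LPS range. Relative to Krt8 and Krt18 the Dsc2 difference was -0.36 with all libraries, with overlapping groups (exact p = 0.278, adjusted 0.356 over 32 tests). Without library 2 it was -0.63 and the groups did not overlap (exact p = 0.0159, adjusted 0.0391). The difference between the LPS effects of the days was -0.83 ± 0.22 for Dsc2 without library 2 (SE; unadjusted p = 0.0012, adjusted p = 0.381) and -0.23 ± 0.58 with all libraries.

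The authors' deposited table for P11 lists Dsc2, alone among the members, with a log2 fold change of -0.515, a standard error of 0.166, p = 0.0019 and adjusted p = 0.231. Their table for P10 lists no member. For P11, the mean normalised count over the 9 libraries without saline library 2 was a near-constant multiple of the authors' base mean. The median ratio of that mean to the base mean was 0.782 (5% to 95% of 1085 genes 0.774 to 0.788). With all 10 libraries the ratio was less constant (0.702 to 0.949).

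**Figure D4:**
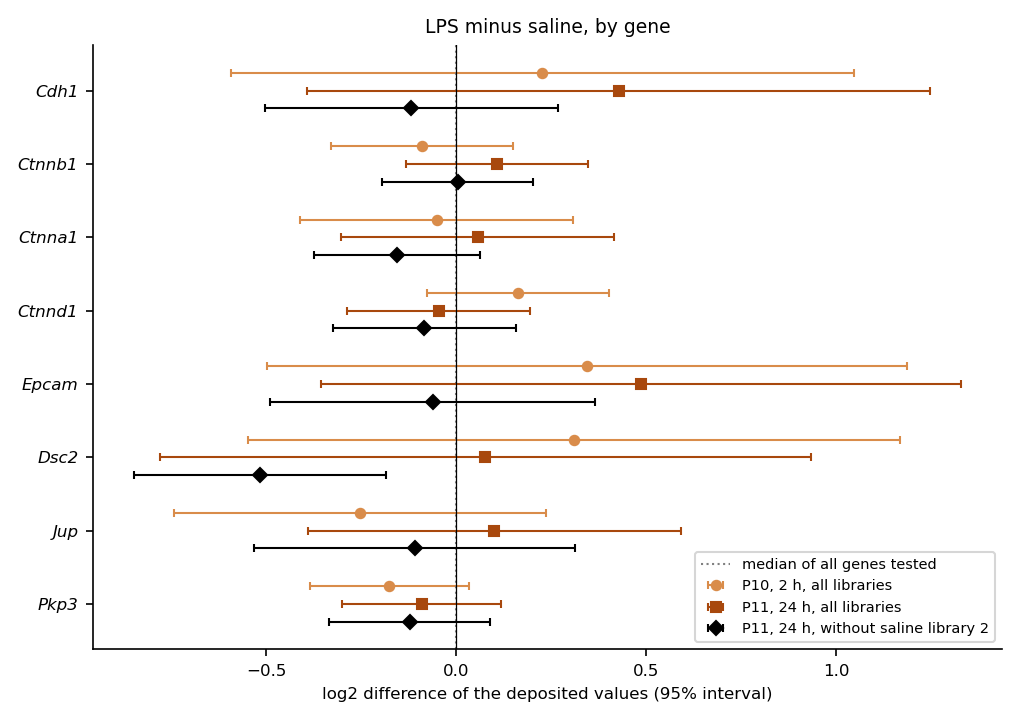
Log2 difference between LPS and saline (horizontal axis) of each gene with its 95% interval, at P10, at P11 with all libraries, and at P11 without saline library 2; the dotted line is the median of all genes tested at P10, 0. Every interval holds 0 except that of Dsc2 at P11 without library 2, which runs from -0.85 to -0.19.

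Within groups, some of the genes varied together from library to library. Over 19 libraries, leaving out library 2 of P11 saline, the deviations from the group means correlated at r = 0.726 for Cdh1 and Epcam, 0.696 for Ctnnd1 and Jup, 0.672 for Ctnnb1 and Dsc2 and 0.661 for Ctnna1 and Ctnnd1. The lowest r was -0.249, for Epcam and Pkp3. These describe libraries that share a scaling and, in part, a dam. Among the 7746 genes with a mean value of at least 8, the deviations most like those of Cdh1 were those of Sdc1 (r = 0.879), Lgmn, Itgb1, Rtn4 and Cdipt. Those most like Epcam were Sec11a (r = 0.948), Rer1, Pbxip1, Serinc3 and Ganab, and those most like Jup were Scaf1 (r = 0.873), Wiz, Gsk3a, Csnk1d and Pik3cb.

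The rest of the junction machinery was counted in lists of known genes. Beside each list stand 25.6% of all genes called higher at P11 in saline dams and 30.9% in LPS dams. The shares called lower were 21.2% and 22%. Of 21 other adherens junction and nectin genes, 15 were called higher and 1 lower at P11 in each arm, with median log2 differences of 1.01 in saline and 1.33 in LPS dams. Vcl, vinculin, which binds stretched alpha-catenin, had mean normalised counts of 150 in saline and 191 in LPS dams at P10 and of 2684 and 3063 at P11, with log2 differences of 3.24 and 3.54. Lima1, which joins alpha-catenin to actin, rose by 3.35 and 3.90, Ajuba by 1.76 and 2.47, and Arvcf, a relative of p120-catenin, by 1.04 and 1.43. Ctnnal1, an alpha-catenin relative, fell by 0.62 and by 0.78. Other classical cadherins were sparse: P-cadherin, Cdh3, averaged 1.70 to 21.6 normalised counts per group, N-cadherin, Cdh2, averaged 8.87 to 37.9, and the endothelial Cdh5 was at or near 0.

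Among the other desmosome genes, all 7 that were detected were called higher at P11 in saline dams and 6 in LPS dams. Ppl, periplakin, which links the desmosomal plaque to keratin, went from mean normalised counts of 24.9 and 14.5 at P10 to 2139 and 2321 at P11 (log2 differences 4.11 and 4.97). The deposited values flatten at low counts, so these log2 differences are smaller than the counts imply. Evpl, envoplakin, rose by 1.07 and 1.65, the plakophilins Pkp1 by 1.70 and 2.05 and Pkp2 by 0.98 and 1.18, and Perp, a desmosomal membrane protein, by 0.94 and 1.05. The desmosomal cadherins of stratified epithelium were at low counts: Dsg3 averaged 0.442 and 2.11 at P10 and 189 and 71.1 at P11, and Dsc3 at most 19.1 in any group. Dsc3 was called in saline dams but not in LPS dams, where its log2 difference was 0.40 (adjusted p = 0.16).

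Of 6 hemidesmosome genes, which anchor cells to the basement membrane, 4 were called higher and 1 lower in each arm. The laminin chain gene Lamb3 rose by 3.87 and 4.96 on the log2 scale in saline and LPS dams, and Itga6, an integrin chain, fell by 0.74 and by 0.48.

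Of 15 partners and proteases of Epcam, 12 were called higher at P11 and none lower in each arm. Cldn7, claudin-7, which binds Epcam, rose by 1.71 and 2.34, the matriptase inhibitor gene Spint1 by 1.83 and 1.95, and Adam10, a sheddase of E-cadherin, by 1.05 and 0.90. The related inhibitor gene Spint2 was not called, at -0.31 and -0.39 (adjusted p = 0.15 and 0.062). Genes of cadherin turnover were divided, with 10 higher and 4 lower of 16 in saline dams and 9 and 5 in LPS dams: the kinase genes Met (4.13 and 4.72) and Src (1.53 and 1.95) rose, while Numb (-0.40 and -0.73) and Rab11a (-0.44 and -0.84), both of endocytic traffic, fell.

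Of 11 repressors of Cdh1 and mesenchymal genes, 6 were called higher at P11 in saline dams, 5 in LPS dams and none lower. Zeb2 went from mean normalised counts of 7.99 and 12.9 at P10 to 462 and 176 at P11, Zeb1 from 9.71 and 11.7 to 128 and 54.4, and Snai1 from 5.464 and 3.92 to 126 and 36.03. Vim, vimentin, which leukocytes also express, rose by 1.71 and 1.93 on the log2 scale, and Snai2 averaged at most 0.435 in any group. The neutrophil and macrophage values given above moved the same way, and their part in these genes was not tested. The authors' deposited table for P11 lists Snai1 with a log2 fold change under LPS of -2.11 (adjusted p = 0.0659) and Zeb1 with -1.53 (adjusted p = 0.129).

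Epithelial transcription factors were divided as well. Of 14, 4 were called higher and 5 lower in saline dams, and 5 and 2 in LPS dams. Over all genes, 25.6% were called higher and 21.2% lower in saline dams, and 30.9% and 22% in LPS dams. Klf4 rose by 2.97 and 2.92 and Foxa1 by 0.78 and 1.20, while Elf5, the factor of milk-secreting alveolar cells, fell by 2.19 and by 2.45 and Ehf by 1.22 and by 1.49. Grhl2, an activator of Cdh1, averaged 1362 to 1565 normalised counts in every group, with log2 differences of -0.02 and -0.11. The 8 genes of the beta-catenin destruction complex had 1 called higher and 1 lower in saline dams and 1 lower in LPS dams, Csnk1a1 at -0.54 and -0.65. Of 14 genes of beta-catenin transcription and its targets, 2 were called higher and 4 lower in saline dams and 2 and 3 in LPS dams: Myc rose by 2.13 and 2.07, Tcf7l2 fell by 1.72 and by 1.63, Bcl9l fell by 1.75 and by 1.37, and Axin2, a common Wnt target, averaged at most 4.47 normalised counts in any group. No gene of these lists was called in a comparison of LPS with saline.

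**Figure D5:**
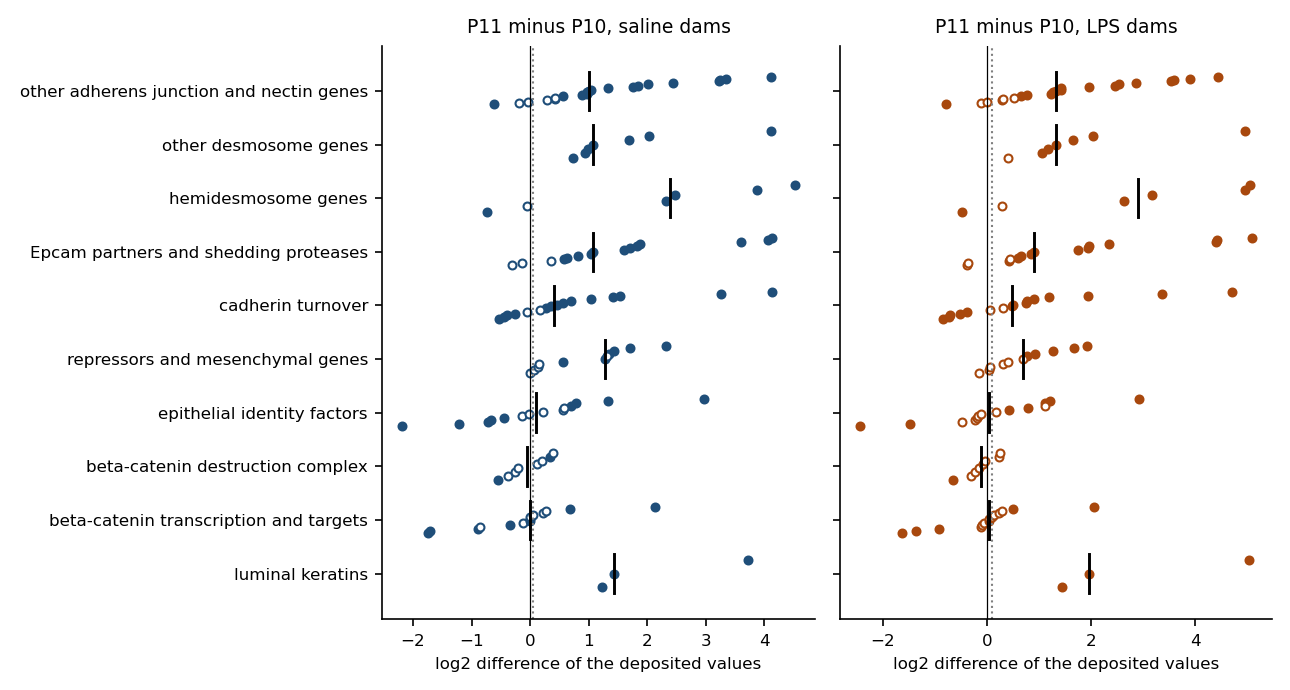
Log2 difference between P11 and P10 (horizontal axis) of every detected gene in 10 lists, in saline dams (left) and LPS dams (right); filled points passed an adjusted p under 0.05, open points did not, black bars are list medians, and the dotted line is the median of all genes tested. The lists of other desmosome genes and of Epcam partners lie mostly right of the dotted line, and those of the beta-catenin destruction complex and targets lie on both sides of it.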

How the data were processed

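RNA of the milk fat layer was measured in 20 stranded mRNA libraries, 5 per group. The deposited values are on a log2 scale, named rlog by the authors; their lowest value fills 30.4% of entries and their form is that of a variance-stabilising transform, so normalised counts were obtained by inverting it. The authors used DESeq2 and the rn6 assembly, per the submitters' processing notes. Which aligner, counter and annotation they used was not given in the sources used here. For LPS against saline, the deposited tables hold base means (normalised signal), log2 fold changes, scores (the test statistic) and p-values from the authors, for genes with an unadjusted p under 0.05.

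Deposited values were fitted with limma 3.58.1 (R 4.3.3; 4 groups, trend) over 14022 genes, leaving out 2726 at the lowest value in every library, with Benjamini-Hochberg adjustment and a threshold of 0.05. The script was tested on simulated data. Pairs of genes and keratin-relative values were tested by 2-sided exact permutation over libraries (Python 3.11.15, numpy 2.4.6, pandas 2.3.3), adjusted over 24 and 32 tests. Of low values, 1.15% to 6.64% came within 0.02 of whole reads, so reads were not recovered and depth is unknown. Alternatives were other scalings, filters and references, weights per library, fits of fewer groups and leaving out each library. The members and lists were chosen with earlier results of these data known. Every member is named; from other lists, the 2 called genes of smallest p per direction and day comparison, plus a fixed set of junction genes and repressors. Dsp, Dsg2 and Krt7 were not analysed here. The pairs Dsc2 minus Cdh1, Pkp3 minus Jup and Cdh1 minus Ctnnb1, and the Krt19 reference, were chosen after seeing the data. Some results on list genes are not reported here.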

Additional observations from a re-analysis of the deposited data

Results flagged for a closer look

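A library far from the other 4 of its group was found in 10 of 56 groups of values (8 genes and 6 pairs in 4 groups). Chance flags about 1 in 20 independent groups. These groups share genes and libraries, so their count cannot be set against that rate. Of the 10, 8 were saline library 2 of P11, with deposited log2 values of 11.95 for Cdh1, 12.97 for Ctnnb1, 13.52 for Ctnna1, 12.97 for Jup, 12.87 for Epcam and 8.98 for Dsc2, and differences of -0.19 for Ctnnd1 minus Ctnna1 and -1.02 for Cdh1 minus Ctnnb1. The others were Ctnnb1 in saline library 5 of P10, the lowest of its group at 12.67, and Epcam minus Cdh1 in LPS library 2 of P10, the highest of its group at 2.01.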

How the results depend on the processing

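The count of genes called was, over the alternatives run, 4 to 8 of 8 in saline dams, 6 to 8 in LPS dams and 0 for LPS against saline. Leaving out 1 library at a time gave 5 to 7 in saline dams and 6 in LPS dams. No paired analysis was possible because the columns carry no dam number. Reads per library are unknown, so no limit from depth can be given; the spread between 5 libraries limits what can be told apart.

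With libraries shifted to the same median, Pkp3 differed between days by -0.15 and -0.12 in saline and LPS dams, Ctnnd1 by -0.24 in LPS dams, and Ctnna1 by -0.0020 between LPS and saline at P11. Quantile scaling gave Ctnnd1 0.077 for LPS at P11. Divided by the library total, LPS differences at P10 were -0.091 for Cdh1 and -0.16 for Ctnnd1, at P11 0.16 for Ctnnd1 and 0.11 for Pkp3, and the change of the LPS effect was 0.32 for Ctnnd1 and 0.25 for Dsc2. With weights per library, LPS differences at P11 were -0.079 for Cdh1, -0.11 for Ctnna1, -0.10 for Jup and -0.40 for Dsc2, and the change of the effect was -0.31 for Cdh1, -0.051 for Ctnna1 and -0.33 for Epcam. The cause was not tested.

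Divided by the total without saline library 2 of P11, LPS differences were -0.091 for Cdh1 and -0.16 for Ctnnd1 at P10, and -0.13 for Cdh1, -0.0081 for Ctnnb1, -0.17 for Ctnna1, -0.12 for Jup, -0.074 for Epcam and -0.54 for Dsc2 at P11; the change of the effect was -0.040 for Cdh1, 0.063 for Ctnnd1 and -0.10 for Epcam. In a fit of the P11 groups alone without that library they were -0.12 for Cdh1, -0.16 for Ctnna1, -0.11 for Jup, -0.062 for Epcam and -0.52 for Dsc2. On log2(normalised count + 1), Epcam minus Cdh1 differed between days by -0.57 in saline dams and passed (exact test, adjusted p = 0.0381), and Dsc2 minus Cdh1 by 0.066 in LPS dams. Against Krt19, day differences in saline and LPS dams were -1.18 and -2.29 for Cdh1, -1.73 and -2.90 for Epcam and -0.90 and -2.44 for Dsc2, and LPS differences were 0.012 for Ctnnb1 and 0.051 for Ctnna1 at P10 and -0.72 for Epcam at P11. On that reference the Dsc2 difference between LPS and saline at P11 was -1.13 and passed (exact test, adjusted p = 0.0149), as did the saline day differences of Ctnnb1, Ctnna1, Ctnnd1, Jup and Pkp3 and that of Jup in LPS dams. Every other member was also lower under LPS at P11 against Krt19, from -0.72 for Epcam to -1.30 for Pkp3, without passing. Krt19 itself averaged 18529 normalised counts in LPS and 10937 in saline dams at P11, with the lowest saline library at 895.

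Leaving out 1 library gave these ranges. For LPS at P11: Cdh1 -0.12 to 0.66, Ctnna1 -0.16 to 0.13, Ctnnd1 -0.092 to 0.0075, Dsc2 -0.52 to 0.28, Epcam -0.062 to 0.66 and Jup -0.11 to 0.22, Cdh1 minus Ctnnb1 -0.12 to 0.51, Ctnnd1 minus Ctnna1 -0.18 to 0.071, Epcam minus Cdh1 -0.0027 to 0.13, Jup minus Ctnnb1 -0.11 to 0.11, and, relative to keratins, Cdh1 -0.24 to 0.13 and Epcam -0.18 to 0.15. For LPS at P10: Ctnna1 -0.12 to 0.010, Dsc2 minus Cdh1 -0.033 to 0.17, Pkp3 minus Jup -0.041 to 0.18 and, relative to keratins, Ctnnd1 -0.0066 to 0.21. For the change of the LPS effect: Cdh1 -0.35 to 0.43, Ctnna1 -0.10 to 0.18 and Epcam -0.41 to 0.32. Between days in LPS dams: Ctnnd1 -0.015 to 0.084, Cdh1 minus Ctnnb1 2.00 to 2.22, Ctnnd1 minus Ctnna1 -1.19 to -1.10, Epcam minus Cdh1 -0.67 to -0.51 and Pkp3 minus Jup -0.995 to -0.79; each of these 4 pairs lost its call in 7 of 10 cases, where fewer libraries allow fewer splits. Relative to keratins, the calls in LPS dams were lost in 5 of 10 cases, 6 for Cdh1, and that of Dsc2 in saline dams in 5, while Ctnna1 under LPS at P11 gained a call without saline library 5 (-0.46, exact test, adjusted p = 0.0317). In saline dams: Cdh1 minus Ctnnb1 1.93 to 2.56, Ctnnd1 minus Ctnna1 -0.9996 to -0.75, Epcam minus Cdh1 -0.63 to -0.47, Jup minus Ctnnb1 0.19 to 0.38 and Pkp3 minus Jup -0.80 to -0.54.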
